A study of Mus musculus with 6 samples.

Results

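The genes described here are the 3 D cyclins (*Ccnd1*, *Ccnd2*, *Ccnd3*), the kinases they activate (*Cdk4*, *Cdk6*) and 5 inhibitors of cyclin-dependent kinases (*Cdkn1a*, *Cdkn1b*, *Cdkn2a*, *Cdkn2b*, *Cdkn2c*). They were chosen by symbol, and all 10 were found, each once, among the 54532 genes of the deposited table, and all 10 passed the filter on low counts. RNA was sequenced from GFP+ leukemia cells sorted from mouse bone marrow, with 3 libraries in each of the 2 groups. *WT Phf6,RE9a* cells (hereafter WT cells, replicates 1, 2 and 3) were *Phf6* fl/y, with the floxed allele and no Cre, and *VC Phf6,RE9a* cells (VC cells, replicates 11, 12 and 13) were *Vav1-Cre;Phf6* fl/y, in which the *Vav1* promoter drives Cre in blood cells. Per the methods, the leukemias of both groups were started by a retrovirus that carries RUNX1-ETO9a (RE9a) with GFP in fetal liver cells and passed on through male recipients. RE9a is a truncated form of the RUNX1-ETO fusion protein of human acute myeloid leukemia. Each library held 15675358 to 16817994 counts. The study's methods give an age range of young adults for the male mice of its leukemia models, while the donor cells that received the RE9a virus were fetal. The labels name neither age nor passage, nor do they say whether libraries of one group came from different leukemias, so p-values measure the spread between these libraries.

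D cyclins are the part of the cell cycle machinery that growth factor signals raise first. They bind CDK4 or CDK6, and the kinase then phosphorylates the retinoblastoma protein and its relatives, which frees E2F factors to switch on genes of DNA synthesis. INK4 proteins (encoded by *Cdkn2a*, *Cdkn2b* and *Cdkn2c*) bind CDK4 and CDK6 themselves. CIP/KIP proteins (encoded by *Cdkn1a* and *Cdkn1b*) bind cyclin-CDK complexes and block CDK2. Blood progenitors use mainly cyclins D2 and D3 and CDK6.

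Of the 10 genes, *Ccnd1*, *Ccnd3* and *Cdkn2c* were higher in VC cells and *Cdk6*, *Cdkn1a* and *Cdkn2a* lower, at an adjusted p under 0.05 from edgeR's quasi-likelihood test. *Ccnd2*, *Cdk4*, *Cdkn1b* and *Cdkn2b* did not pass. Across the 14169 genes tested, 44.2% passed (21.5% were higher and 22.7% lower), so 6 of 10 genes is not far above the share among genes at large. The 3 libraries of each group did not overlap for 7 of the 10 genes and for 57.3% of all genes. Of the 6 genes, *Ccnd1*, *Cdkn1a* and *Cdkn2a* also differed 2-fold or more, 3 of 10 against 21.4% of all genes. Among all genes called, 48.7% were higher in VC cells, and 62.1% when counts were scaled by library totals alone. The median absolute log2 fold change was 0.80 over the 10 genes and 0.44 over all genes tested.

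*Phf6* itself, the deleted gene, was at 64.3 ± 7.15 CPM (counts per 1000000 counts of the library, SD, n = 3) in WT cells and 20.3 ± 2.37 CPM in VC cells, and its log2 fold change was -1.66 (edgeR adjusted p = 9.32e-05). Marker genes of other blood cells also differed between the groups. Mature granulocyte genes were higher in VC cells, 10 of 10, with a summed level of 160.1 to 491 CPM in WT and 989 to 3749 CPM in VC libraries. All 8 erythroid genes were higher, from 1482 to 2237 against 5089 to 5961 CPM. Of 8 mast cell and basophil genes 7 were lower, from 15643 to 26018 against 3875 to 4199 CPM. All 5 tested B cell genes of 8 were higher, at sums of 3.12 to 8.53 and 26.1 to 72.2 CPM, and T cell genes summed to 1.30 to 2.06 and 6.71 to 9.39 CPM, with 1 of 8 tested, which was higher. Of 6 tested macrophage genes of 8, 2 were higher (sums of 10.8 to 19.6 and 26.1 to 32.0 CPM). Of 12 genes of myeloid leukemia and progenitor cells 6 were higher and 3 lower, at a median log2 fold change of 1.15. Their sums were 2385 to 3745 and 599 to 873 CPM. The largest part of these sums was *Kit*, with a mean of 2420 CPM in WT and 273 CPM in VC cells. No marker was at 0 in every library. In bulk libraries, fewer cells of a type and less RNA per cell cannot be told apart, and the part of these shifts in the changes of the 10 genes was not tested.

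The windows around the start sites of 4 of the genes that changed are shown here, because these genes carry the changes on each side and because *Cdkn2a* has 2 starts that the table counts as 1 gene. Of the 2 *Cdkn1a* windows the downstream one is shown, and of the 2 *Ccnd3* windows the upstream one. Each window runs from 250 bases before to 50 bases after a RefSeq start on GRCm38.p6, 5′ to 3′ on the gene's strand. Capitals mark the Sp1 motif GGGCGG on either strand. In the window of *Cdk6* they mark the letters of the TATA box, TATAAA. A RUNX motif, TGTGGT on either strand, would be capitalised too but stands in none of these windows.
*Cdkn1a*, chr17:29093519-29093818, plus strand: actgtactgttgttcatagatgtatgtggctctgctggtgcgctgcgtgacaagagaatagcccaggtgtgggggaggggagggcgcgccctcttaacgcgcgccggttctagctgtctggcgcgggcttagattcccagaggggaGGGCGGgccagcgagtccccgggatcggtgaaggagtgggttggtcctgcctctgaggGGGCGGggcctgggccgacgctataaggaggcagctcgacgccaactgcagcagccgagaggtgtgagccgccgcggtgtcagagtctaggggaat
*Ccnd3*, chr17:47504801-47505100, plus strand: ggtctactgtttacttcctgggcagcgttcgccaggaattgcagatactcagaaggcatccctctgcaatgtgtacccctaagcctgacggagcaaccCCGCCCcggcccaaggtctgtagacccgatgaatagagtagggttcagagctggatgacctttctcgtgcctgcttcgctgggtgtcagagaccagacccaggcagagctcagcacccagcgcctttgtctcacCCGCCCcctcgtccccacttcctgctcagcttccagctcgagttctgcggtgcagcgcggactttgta
*Cdk6*, chr5:3343643-3343942, plus strand: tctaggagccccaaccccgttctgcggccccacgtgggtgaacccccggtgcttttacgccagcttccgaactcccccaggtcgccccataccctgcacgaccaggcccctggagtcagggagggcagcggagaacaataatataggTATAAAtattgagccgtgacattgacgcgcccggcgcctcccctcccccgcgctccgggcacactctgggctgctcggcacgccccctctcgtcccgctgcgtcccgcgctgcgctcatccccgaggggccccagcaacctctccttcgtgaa
*Cdkn2a*, downstream start (p16Ink4a), chr4:89282143-89282442, minus strand: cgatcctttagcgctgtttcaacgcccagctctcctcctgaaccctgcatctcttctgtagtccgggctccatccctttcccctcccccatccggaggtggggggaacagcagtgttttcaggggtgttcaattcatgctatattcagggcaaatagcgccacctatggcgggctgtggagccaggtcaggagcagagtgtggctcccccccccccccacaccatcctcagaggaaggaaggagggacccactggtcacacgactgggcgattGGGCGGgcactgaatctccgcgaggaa
*Cdkn2a*, upstream start (p19Arf), chr4:89294570-89294869, minus strand: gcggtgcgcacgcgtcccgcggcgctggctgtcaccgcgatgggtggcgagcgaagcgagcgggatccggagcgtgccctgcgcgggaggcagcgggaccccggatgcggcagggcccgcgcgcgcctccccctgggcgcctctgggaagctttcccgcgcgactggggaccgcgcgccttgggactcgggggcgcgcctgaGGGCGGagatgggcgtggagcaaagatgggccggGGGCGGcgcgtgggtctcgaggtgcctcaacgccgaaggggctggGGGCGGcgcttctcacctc

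Among the RefSeq windows 12 belonged to 8 of the 10 genes. GGGCGG stood in 9 of these 12 windows and in 35.7% of all 32851 windows. The *Cdkn1a* window held it at -104 and -46, counted from the start, and that of *Ccnd3* held its reverse complement at -152 and -18. The *Cdk6* window held TATAAA at -103, the only match to these letters in the 12 windows, against 13.6% of all windows. TGTGGT was found in the window of *Cdk4*, whose level did not pass the test, and in 16.8% of all windows. TGANTCA (AP-1) and TTTGGCGC or TTTCGCGC (E2F) matched none of the 12, and 7.81% and 0.813% of all windows. CACGTG (E-box) matched 3 of the 12 and 7.15% of all. Both strands were searched, and overlaps between motifs were allowed. The downstream *Cdkn2c* window had 44% G and C and the others 54.7 to 77%, against a median of 52.7% over all windows. GGGCGG is made of G and C only, and its share was not compared at matched G and C content.

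**Figure D1:**
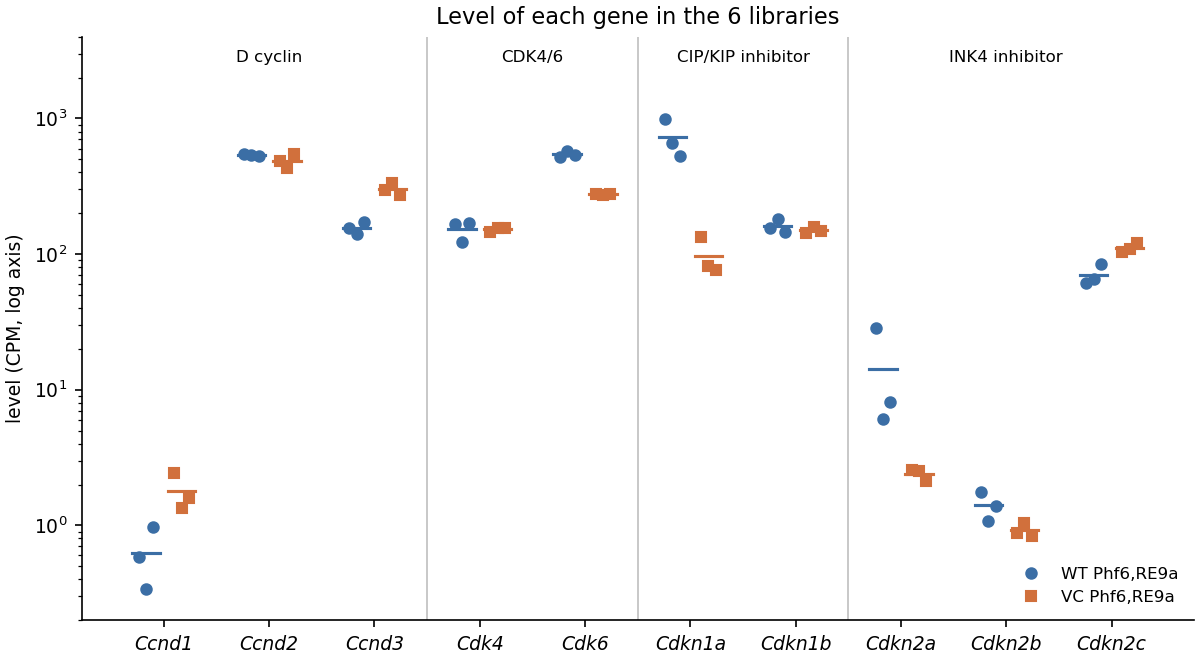
Level of each gene in CPM on a log axis, with 1 point a library, a short line at the mean of 3 libraries, circles for WT and squares for VC cells. *Cdkn1a* fell from 532 to 998 CPM in the WT libraries to 76.0 to 133 CPM, while *Ccnd2* lay between 432 and 549 CPM in all 6.

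Among the D cyclins, *Ccnd3* rose and *Ccnd2*, which had the most counts, did not pass the test. *Ccnd3* (chromosome 17, 47505051 to 47599691 on GRCm38) had 2395, 2072 and 2841 counts in WT cells and 5002, 5753 and 4551 in VC cells. Each VC library lay above every WT library. In CPM it rose from 156 ± 15.7 to 300.3 ± 32.7 CPM (mean ± SD of 3 libraries), or by a log2 fold change of 0.94 (95% interval 0.68 to 1.21, standard error 0.11, edgeR adjusted p = 0.000584). Cyclin D3 is the D cyclin used by maturing erythroid and lymphoid precursors. *Ccnd3* shares 361 exon bases with *Bysl* on the opposite strand, which had 426 to 794 counts.
*Ccnd2* (chromosome 6, 127125162 to 127152193) had 8456, 7940 and 8670 counts in WT cells and 8166, 7411 and 9188 in VC cells. The groups overlapped. The log2 fold change was -0.14 (95% interval -0.39 to 0.10, edgeR adjusted p = 0.312), and it turned to 0.0050 when counts were scaled by library totals alone. VC libraries spread more, with an SD of 57.2 CPM against 12.2 CPM in WT libraries.
*Ccnd1* (chromosome 7, 144929931 to 144939925), the D cyclin of many epithelial tissues, was barely read. Its counts were 9, 5 and 16 in WT cells and 41, 23 and 27 in VC cells, and the groups did not overlap. The level rose from 0.631 ± 0.317 to 1.79 ± 0.563 CPM (mean ± SD of 3 libraries), or by a log2 fold change of 1.48 (95% interval 0.44 to 2.52, standard error 0.45, edgeR adjusted p = 0.0296). It lost the threshold without any one of WT replicate 1 (adjusted p = 0.0865 from edgeR), WT replicate 2 (0.0754), VC replicate 11 (0.111) or VC replicate 13 (0.0587), and its log2 fold change was 0.28 with limma on log2(FPKM + 1), a scale that shrinks changes of low values. *Ccnd1* is uncertain for a further reason, since 1100 exon bases overlap *LTO1* on the opposite strand, which had 297 to 375 counts, and the strandedness of the counting is not given in the sources used here.

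Lengths were taken into account with the deposited FPKM values (fragments per kilobase of gene, scaled for library size). These divide by a single length per gene, 9409 bases for *Ccnd2* and 8775 for *Ccnd3*, and not by the length of the transcripts present. Shares, ratios and orders between genes therefore depend on the lengths in the deposited table, and other lengths were not tested. Within the summed D cyclin level, *Ccnd2* made up 73.8 to 78.1% in WT libraries and 54.4 to 65.1% in VC libraries. *Ccnd3* made up 21.8 to 25.9% and 34.6 to 45.3%, and *Ccnd1* at most 0.602% in any library. The ranges of *Ccnd2* and of *Ccnd3* did not overlap between groups. The sum of the 3 was 74.6 ± 1.72 FPKM in WT and 85.2 ± 2.04 FPKM in VC cells (SD, n = 3). With these lengths *Ccnd2* stayed the higher of both main D cyclins in every library, with *Ccnd3* at 0.280 to 0.351 of its FPKM in WT and 0.531 to 0.832 in VC cells.

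**Figure D2:**
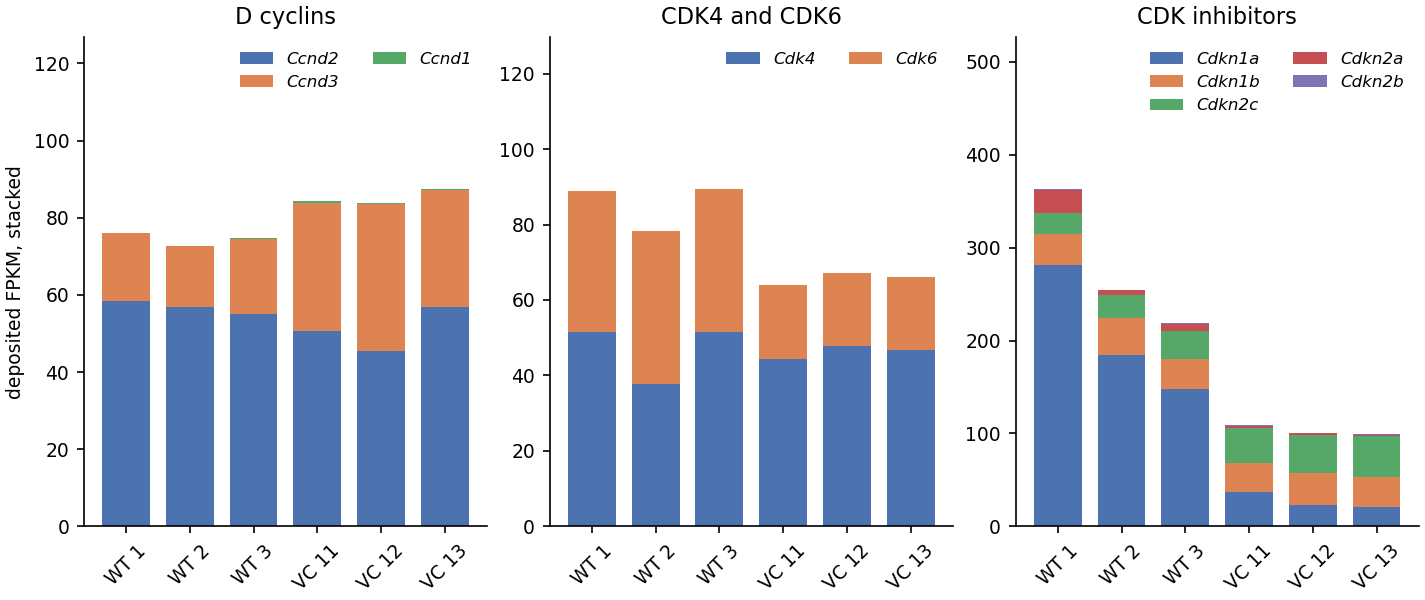
Deposited FPKM of the D cyclins (left), of *Cdk4* and *Cdk6* (middle) and of the 5 inhibitors (right), stacked for each of the 6 libraries, 3 WT and 3 VC, with a separate linear axis from 0 in each panel. The inhibitor stack was 219 to 363 FPKM in WT and 99.2 to 109 FPKM in VC libraries.

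Of the kinases, *Cdk6* fell and *Cdk4* did not pass. *Cdk6* (chromosome 5, 3341485 to 3531008), the main D cyclin partner in blood progenitors, had 8016, 8408 and 8875 counts in WT cells and 4705, 4686 and 4652 in VC cells. No library of one group reached the other, and the VC libraries lay within 1.02-fold of each other. The level fell from 543 ± 25.5 to 276 ± 2.45 CPM (mean ± SD of 3 libraries), with a log2 fold change of -0.98 (95% interval -1.17 to -0.79, standard error 0.083, edgeR adjusted p = 0.000131). Over all alternatives the log2 fold change of *Cdk6* ran from -1.01 to -0.83.
*Cdk4* (chromosome 10, 127063534 to 127067920), the more widely expressed kinase, had 2582, 1820 and 2795 counts in WT cells and 2478, 2684 and 2607 in VC cells. All VC values fell inside the WT range, where replicate 2 was low. The log2 fold change of *Cdk4* was -0.0086 (95% interval -0.31 to 0.29, edgeR adjusted p = 0.965), and its sign changed under 5 alternatives.
On the FPKM scale, *Cdk6* was at 0.721 to 1.07 of the *Cdk4* level in WT libraries and at 0.405 to 0.441 in VC libraries. Its share of the summed level of both kinases was 41.9 to 51.8% and 28.9 to 30.6%, without overlap. *Cdk4* shares 641 exon bases with *Tspan31* (502 to 759 counts) and *Cdk6* 368 with *Gm17590* (35 to 125 counts), both on the opposite strand.

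Of the CIP/KIP inhibitors, *Cdkn1a* fell and *Cdkn1b* did not pass. *Cdkn1a* (chromosome 17, 29090976 to 29100727) encodes p21, a target of p53 that is also induced by many stress signals. It had 15374, 9766 and 8795 counts in WT cells and 2250, 1405 and 1279 in VC cells. The lowest WT library lay well above the highest VC library. The level fell from 731 ± 240.3 to 96.9 ± 31.3 CPM (mean ± SD of 3 libraries), 7.54-fold lower, for a log2 fold change of -2.92 (95% interval -3.61 to -2.22, standard error 0.30, edgeR adjusted p = 0.000281). This was the largest fitted change of the 10 genes. When single libraries were left out the log2 fold change of *Cdkn1a* ran from -3.20 to -2.63. An antisense gene, *AC167363.2*, shares 273 exon bases with *Cdkn1a* and had 279 to 388 counts in WT cells and 58 to 75 in VC cells, and reads of the 2 genes cannot be told apart without strand.
*Cdkn1b* (chromosome 6, 134920401 to 134925513) encodes p27, which holds cells out of the cycle. Its counts were 2386, 2686 and 2414 in WT cells and 2442, 2723 and 2473 in VC cells. The levels overlapped, at 161 ± 18.8 and 149.9 ± 7.69 CPM (SD, n = 3). The log2 fold change of *Cdkn1b* was -0.10 (95% interval -0.34 to 0.14, edgeR adjusted p = 0.450), and 0.047 with library totals alone.

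**Figure D3:**
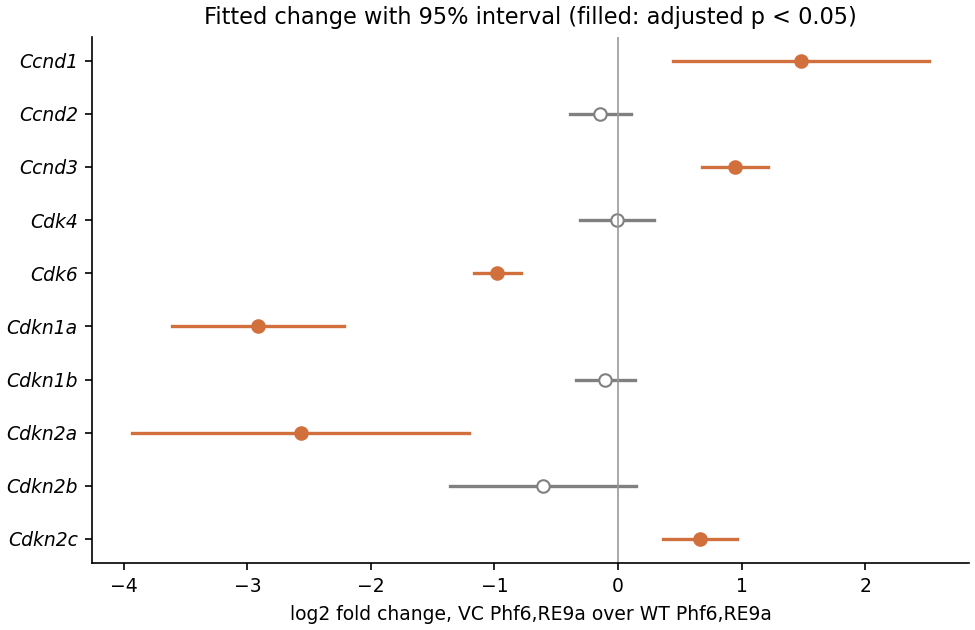
Fitted log2 fold change of each gene, VC over WT cells, with its 95% interval from edgeR's quasi-likelihood fit. Filled points mark the 6 genes with an adjusted p under 0.05, and the intervals of *Ccnd2*, *Cdk4*, *Cdkn1b* and *Cdkn2b* cross 0.

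Of the INK4 genes, *Cdkn2c* rose, *Cdkn2a* fell and *Cdkn2b* did not pass. *Cdkn2c* (chromosome 4, 109660876 to 109667189), which encodes p18 and is the INK4 gene of many proliferating and maturing blood cells, had 950, 965 and 1385 counts in WT cells and 1759, 1882 and 2033 in VC cells. The groups did not overlap. The level rose from 70.3 ± 11.8 to 111 ± 8.61 CPM (mean ± SD of 3 libraries), or by a log2 fold change of 0.66 (95% interval 0.36 to 0.96, standard error 0.13, edgeR adjusted p = 0.00493).
*Cdkn2a* (chromosome 4, 89274471 to 89294653) encodes p16Ink4a from its downstream start and p19Arf, an activator of p53, from its upstream start. Its counts were 440, 89 and 134 in WT cells and 43, 43 and 36 in VC cells. The groups did not overlap, but WT replicate 1 stood far above the other WT libraries. The highest of the 3 WT libraries was 4.73 times the lowest in CPM, against 1.19 times for the VC libraries. The level fell from 14.2 ± 12.5 to 2.39 ± 0.222 CPM (mean ± SD of 3 libraries), with a log2 fold change of -2.57 (95% interval -3.93 to -1.20, standard error 0.59, edgeR adjusted p = 0.00978). Without WT replicate 1 the log2 fold change of *Cdkn2a* was -1.57 (adjusted p = 0.00615 from edgeR) and with limma on log2(FPKM + 1) it was -1.82. The counts of the gene do not show which start its reads came from.
*Cdkn2b* (chromosome 4, 89306299 to 89311039), the neighbor of *Cdkn2a* that encodes p15 and responds to TGF-β, had 27, 16 and 23 counts in WT cells and 15, 18 and 14 in VC cells. In CPM the groups did not overlap, at 1.09 to 1.75 and 0.832 to 1.05. The log2 fold change was -0.61 (standard error 0.33, 95% interval -1.36 to 0.14) and did not pass (adjusted p = 0.167 from edgeR).
In WT replicate 1 all of *Cdkn1a*, *Cdkn2a* and *Cdkn2b* had their highest level of the 6 libraries, at 998, 28.6 and 1.75 CPM, while *Cdkn2c* had its lowest, at 61.7 CPM.

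Summed over the 5 inhibitors, the level per length was 279 ± 75.4 FPKM in WT and 103 ± 5.29 FPKM in VC cells (SD, n = 3). *Cdkn1a* made up 67.8 to 77.3% of it in WT libraries and 21.2 to 33.8% in VC libraries. *Cdkn2c* went from 6.32 to 14.1% to 35.0 to 44.5%, and *Cdkn1b* from 9.36 to 15.6% to 28.7 to 34.3%. None of these ranges overlapped between groups. The level of *Cdkn1b* itself was 35.2 ± 4.10 FPKM in WT and 32.5 ± 1.82 FPKM in VC cells (SD, n = 3), so its share rose because the sum fell. *Cdkn2c* itself rose from 26.0 ± 4.26 to 40.9 ± 3.01 FPKM (SD, n = 3), so its share rose with its own level and with the fall of the sum. Shares of 1 sum do not change independently. *Cdkn1a* was at 4.66 to 8.26 times the FPKM of *Cdkn1b* in WT libraries and at 0.661 to 1.18 times in VC libraries. *Cdkn2c* exceeded *Cdkn1a* in every VC library, by 1.03 to 2.10 times, and reached at most 0.208 of it in WT libraries. These shares and ratios are descriptions without a test.

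By FPKM the order in WT cells was *Cdkn1a*, *Ccnd2*, *Cdk4*, *Cdk6*, *Cdkn1b*, *Cdkn2c*, *Ccnd3*, *Cdkn2a*, *Cdkn2b* and *Ccnd1*, from 205 down to 0.133 FPKM. Libraries of neighbors in this order overlapped for *Cdk4* and *Cdk6*, *Cdk6* and *Cdkn1b*, and *Ccnd3* and *Cdkn2a*. In VC cells the order was *Ccnd2*, *Cdk4*, *Cdkn2c*, *Ccnd3*, *Cdkn1b*, *Cdkn1a*, *Cdk6*, *Cdkn2a*, *Cdkn2b* and *Ccnd1*, from 51.0 to 0.375 FPKM. There *Ccnd2* and *Cdk4*, *Ccnd3* and *Cdkn1b*, and *Cdkn1b* and *Cdkn1a* overlapped. *Cdkn1a* exceeded 98.5% of the genes tested in WT cells and 85.7% in VC cells, and *Ccnd1* exceeded 3.67 and 9.40%.
By Pearson's r of log2 CPM over the 6 libraries, the genes most like *Ccnd3* were *Nudt4*, *Fbxo31* and *Rnf216* (r from 0.997 to 0.999), and those most like *Cdk6* were *Castor1*, *Gm21887* and *Wipf1* (r of 0.9995, 0.9990 and 0.9990). These are descriptions over 6 libraries in 2 clusters, and 48 and 131 of the 9042 genes compared had an r of at least 0.99 with *Ccnd3* and *Cdk6*.

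Around these 10 genes, 10 of 28 other G1 and G1/S regulators were higher in VC cells and 2 were lower, beside 21.5% and 22.7% of all genes tested. The median log2 fold change was 0.23 in the list and 0.013 over all genes tested. The higher genes were the cyclins *Ccne1*, *Ccne2* and *Ccna2*, the E2F and DP factors *E2f1*, *E2f2*, *E2f4* and *Tfdp2*, the inhibitor *Cdkn1c*, and *Skp2* and *Cks1b*, which target p27 for destruction. *E2f2* had 864, 757 and 1153 counts in WT cells and 2820, 3155 and 2777 in VC cells, and its log2 fold change was 1.54 (edgeR adjusted p = 0.000111). *Skp2* rose from 15.3 ± 3.80 to 35.2 ± 1.81 CPM (SD, n = 3), and *Tfdp2* had 69 to 122 counts in WT and 236 to 334 in VC libraries.
The lower genes were the pocket protein genes *Rb1*, whose product is the substrate of CDK4 and CDK6, and *Rbl2*. *Rb1* had 2285, 1821 and 2260 counts in WT cells and 1119, 1256 and 1011 in VC cells, and its log2 fold change was -1.04 (edgeR adjusted p = 0.000292, standard error 0.11). *Rbl1*, the third pocket protein, had a log2 fold change of 0.26 and did not pass. Of the inhibitors outside the 10 genes, *Cdkn1c* (p57) rose by 2.23 on the log2 scale from a level of 0.573 CPM, and *Cdkn2d* (p19Ink4d) had a log2 fold change of -0.19 and did not pass. The number of higher regulators was 6, 7 and 12 without WT replicates 1, 2 and 3 in turn. Without VC replicates 11, 12 and 13 it was 6, 4 and 5. Calls over all genes changed too. With all 6 libraries 3047 genes were higher, and 2472, 2870 and 3132 without WT replicates 1, 2 and 3. Without VC replicates 11, 12 and 13 there were 2179, 2193 and 2404.

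Of 20 E2F target genes 8 rose and the other 12 did not pass, beside 21.5% higher and 22.7% lower among all genes tested. The median log2 fold change over the list was 0.41. *Mcm10* rose from 51.9 ± 8.39 to 77.0 ± 2.17 CPM (SD, n = 3). WT libraries varied in this list, with sums of 2926, 2313 and 3474 CPM against 3450 to 3629 CPM in VC libraries. The number that rose was 3, 6 and 17 without WT replicates 1, 2 and 3 in turn. Without VC replicates 11, 12 and 13 it was 4, 3 and 5. Calls over all genes in the same fits are given above with the G1 regulators.
Of 20 G2 and mitosis genes 13 rose (median log2 fold change 0.57), beside 21.5% higher and 22.7% lower among all genes tested. *Cenpf* fell by 0.40 on the log2 scale, a call lost with library totals alone. *Aurka*, a kinase of the spindle poles, rose from 38.5 ± 11.9 to 78.6 ± 3.28 CPM and *Birc5* (survivin) from 51.4 ± 13.3 to 89.1 ± 2.13 CPM (SD, n = 3). The sums were 2638, 2148 and 3428 CPM in WT and 3856 to 4077 CPM in VC libraries. The number that rose was 7, 11 and 19 without WT replicates 1, 2 and 3 in turn. Without VC replicates 11, 12 and 13 it was 5, 5 and 8, beside the same calls over all genes.

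**Figure D4:**
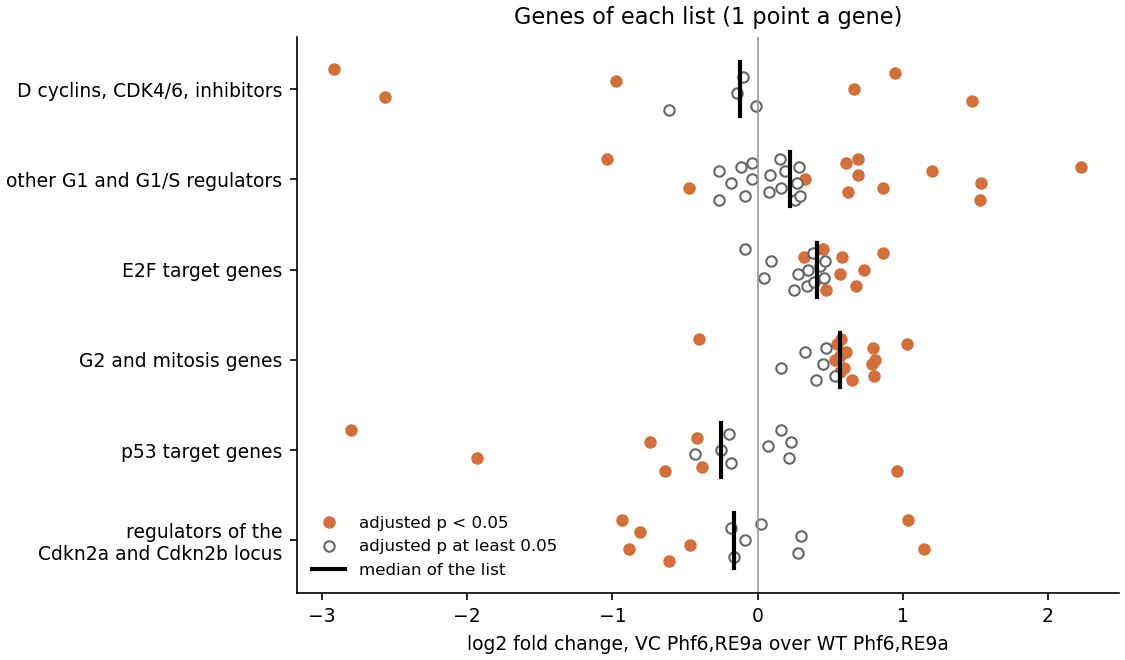
Log2 fold change of each tested gene, VC over WT cells, in 6 lists, with filled points for an adjusted p under 0.05 from edgeR and a bar at the list's median. The medians were -0.12 for the 10 genes, 0.23 for the other G1 and G1/S regulators, 0.41 for E2F targets, 0.57 for G2 and mitosis genes, -0.25 for p53 targets and -0.16 for regulators of the *Cdkn2a* and *Cdkn2b* locus.

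Among 15 p53 target genes other than *Cdkn1a*, 6 fell and 1 rose (median log2 fold change -0.25), which became 3 and 3 with library totals alone. Among all genes tested 44.2% were called, with 22.7% lower and 21.5% higher. *Zmat3* fell from 103 ± 22.7 to 26.9 ± 2.25 CPM and *Ccng1* (cyclin G1) from 265 ± 33.4 to 170.5 ± 7.76 CPM (SD, n = 3). *Mdm2*, *Eda2r*, *Bax* and *Btg2* also fell, and *Gtse1*, which is a G2 gene as well, rose. The number that fell was 2, 6 and 4 without WT replicates 1, 2 and 3 in turn. Without VC replicates 11, 12 and 13 it was 4, 3 and 2. Over all genes, 3213 were lower with all 6 libraries, and 2839, 3166 and 3338 without these WT libraries in turn. Without the VC libraries in turn there were 2511, 2574 and 2613.
Of 13 tested regulators of the *Cdkn2a* and *Cdkn2b* locus, 5 fell and 2 rose, beside 22.7% lower and 21.5% higher among all genes tested. Polycomb proteins repress this locus, and among them *Bmi1* fell from 50.3 ± 1.81 to 27.2 ± 1.23 CPM (SD, n = 3) and *Rnf2* fell by 0.81 on the log2 scale, while *Cbx7* rose by 1.15 on the log2 scale. *Smad3*, which carries TGF-β signals, rose from 43.1 ± 3.63 to 88.3 ± 1.78 CPM (SD, n = 3), and *Smad2* and *Smad4* fell. The H3K27 demethylase gene *Kdm6b* fell by 0.93 on the log2 scale. With library totals alone 4 regulators were higher. *Cbx2* had too few counts to be tested.

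**Figure D5:**
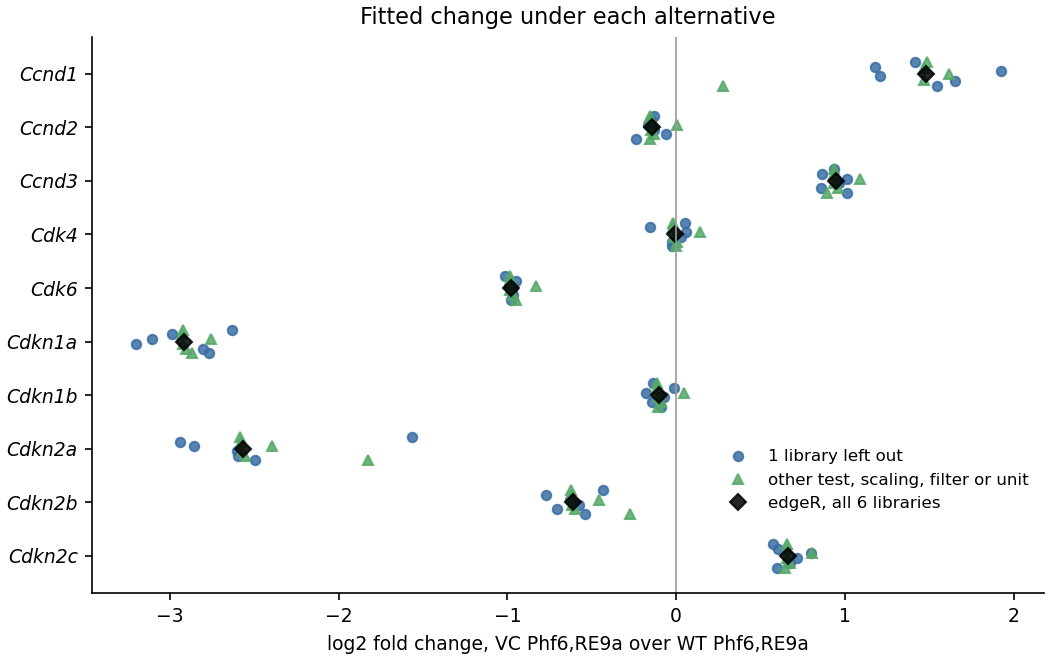
Log2 fold change of each gene, VC over WT cells, with all 6 libraries (diamonds), with 1 library left out (circles) and with another test, scaling, filter or unit (triangles). *Ccnd3*, *Cdk6*, *Cdkn1a*, *Cdkn2a* and *Cdkn2c* kept their sign and their call under all 12 alternatives plotted, and *Ccnd1* kept its call under 7 of 11.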

How the data were processed

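RNA-sequencing of 6 libraries was taken from 1 deposited table. The authors deposited read counts per Ensembl gene without normalization, and FPKM values, which equal those counts over the table's gene length and a library size of 0.916 to 1.07 times the total count. The table also holds the authors' own DESeq2 comparison (group means, fold changes and p-values), which was not used. The submitters' processing notes name Bowtie 0.12.0 and mm8, but gene starts and ends match GENCODE M21 on GRCm38 for 98.3% of 54495 genes and for all 10 genes described. The counting tool and strandedness are not given in the sources used here.

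Total counts ran from 15675358 to 16817994 per library, and 3 counts came to at most 0.204 CPM, a limit of counting error only. No libraries were duplicates. The chi-square per gene was 11.7 to 15.2 between VC libraries and 31.5 to 45.2 between WT libraries, so the VC libraries were more alike. Whether this comes from the origin of the libraries was not tested.

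Counts were filtered with edgeR 4.0.16 (filterByExpr) in R 4.3.3, scaled by TMM, and compared over all 14169 genes by its quasi-likelihood test, with p-values adjusted after Benjamini and Hochberg and a threshold of 0.05. CPM values use the TMM scale, and log2 CPM a prior count of 2. Standard errors are the log2 fold change over the square root of F. Alternatives used DESeq2 1.42.0, limma 3.58.1 on log2(FPKM + 1), other scalings and filters, and each library left out. Promoter sequences are from RefSeq. The genes and lists were chosen with earlier results of these data known. The named genes are the 10 genes, *Phf6*, the genes of smallest p in each list (4 of the G1 and G1/S list, 2 of each other), and the 3 genes most correlated with the higher and the lower gene of smallest p, among those with a mean of at least 10 CPM. Of these, 1 gene is not reported here. Further list genes, *AC167363.2* and other overlapping genes were named after their values were seen.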

Additional observations from a re-analysis of the deposited data

How the results depend on the processing

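At the threshold of 0.05 the calls of *Ccnd3*, *Cdk6*, *Cdkn1a*, *Cdkn2a* and *Cdkn2c* and the direction of all 6 calls held under every other test, scaling, filter and left-out library, but *Ccnd1* was not tested where every library needed 10 counts, and its call was lost without 4 of the 6 libraries. When a 2-fold change was required too, 1 of the 10 genes was higher and 2 were lower. Among all genes, 1690 were higher and 2110 lower at a threshold of 0.01, and 1410 and 1625 with the 2-fold minimum. Library totals alone moved the median of all genes by 0.15 on the log2 scale and the share of higher genes among those called from 48.7 to 62.1%. With that scaling the log2 fold change was 0.0050 for *Ccnd2*, 0.14 for *Cdk4* and 0.047 for *Cdkn1b*, 0 G2 and mitosis genes were lower, 3 p53 targets were higher and 3 lower, and 4 regulators of the *Cdkn2a* and *Cdkn2b* locus were higher. *Cdk4* also changed sign with the 10-count filter (0.0034) and without *WT Phf6,RE9a* replicate 1 (0.053), *WT Phf6,RE9a* replicate 3 (0.059) or *VC Phf6,RE9a* replicate 11 (0.027), and ran from -0.15 to 0.059 over all left-out libraries. With 1 library left out, higher genes numbered from 4 to 12 for other G1 and G1/S regulators, 3 to 17 for E2F targets and 5 to 19 for G2 and mitosis genes, and the number of lower p53 targets from 2 to 6. In the same fits 2179 to 3132 of all genes were higher and 2511 to 3338 lower. The cause was not tested. Shares of FPKM were the same with TPM by construction. No paired analysis was possible because the groups share no replicate number. Counts under 50, as for *Ccnd1* and *Cdkn2b*, limit what can be said of those genes.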
